A study of Mus musculus with 8 samples.

Results

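The respiratory chain and ATP synthase genes of CD8+ T cells were followed through interferon and T cell receptor stimulation on 8 arrays. The members were the array's non-control probes whose gene name began with Nduf, Uqcr, Cox4 to Cox8 or Atp5, or was Sdha, Sdhb, Sdhc or Sdhd, with the brightest probe over the 7 conditions taken for each gene. The pattern gave 88 of the 28095 gene names on the array: 7 core subunits, 29 accessory subunits and 4 assembly factors of complex I, the 4 subunits of complex II, 7 genes of complex III, 18 of complex IV, 5 of the F1 part and 10 of the Fo part and stalks of ATP synthase, and 4 names that fit the pattern but are not subunits of the complex they are named for (Cox7a2l, Cox4nb, Atp5s and Atp5sl). Of these, 85 had a probe well above background on at least 2 of the 8 arrays and were tested among 19629 genes that passed the same filter. All 88 matched a RefSeq record, 5 of them under another symbol today (Uqcr is Uqcr11, Atp5f1 is Atp5pb, Atp5s is Dmac2l, Atp5sl is Dmac2 and Cox4nb is Emc8).

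The cells were splenic CD8+ T cells purified by magnetic separation from OT-I mice on the C57BL6 background, which carry a transgenic T cell receptor (TCR) for the ovalbumin peptide SIINFEKL, so every group shared this receptor and stimulation bypassed antigen-presenting cells. Cells were given IFNβ for 1 h followed by TCR stimulation for 1 h or 6 h, IFNβ alone for 2 h or 7 h, TCR stimulation with SIINFEKL streptamers alone for 1 h or 6 h, or no treatment. Each treated condition had 1 array and the untreated condition had 2, with 4 arrays on each of 2 slides. The design sets interferon given ahead of TCR stimulation against each treatment alone and against no treatment.

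Oxidative phosphorylation works in the inner mitochondrial membrane. Complexes I and II pass electrons from NADH and succinate to ubiquinone, complex III passes them on to cytochrome c and complex IV to oxygen, while complexes I, III and IV pump the protons that drive ATP synthase. Resting T cells draw most of their ATP from this chain, and activated T cells enlarge their mitochondria while they also turn up glycolysis. All members are encoded in the nucleus. Those that are subunits of complexes I, III and IV or of ATP synthase have to be imported and assembled with subunits that mitochondrial DNA encodes.

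The promoters of 5 members are shown first, because the estimates of these genes are set side by side below. Ndufaf4 is the complex I assembly factor with the largest change. Atp5g1, Atp5g2 and Atp5g3 encode the same mature subunit c of ATP synthase. Their estimates of change differed in size, but the difference was not tested. Cox7a2l was lower where most members were higher. Each sequence is the 250 bases before the transcription start in RefSeq (build GRCm38.p6), 5′ to 3′ on the gene's strand, with exact matches to the motifs named below in capitals.
Ndufaf4 (chr4:24897833-24898082, plus strand): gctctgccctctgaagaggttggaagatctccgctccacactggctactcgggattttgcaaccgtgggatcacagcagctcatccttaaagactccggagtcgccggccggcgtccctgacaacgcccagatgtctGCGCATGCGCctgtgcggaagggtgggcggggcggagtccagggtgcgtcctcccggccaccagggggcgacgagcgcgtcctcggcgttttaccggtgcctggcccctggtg
Atp5g1 (chr11:96075632-96075881, minus strand): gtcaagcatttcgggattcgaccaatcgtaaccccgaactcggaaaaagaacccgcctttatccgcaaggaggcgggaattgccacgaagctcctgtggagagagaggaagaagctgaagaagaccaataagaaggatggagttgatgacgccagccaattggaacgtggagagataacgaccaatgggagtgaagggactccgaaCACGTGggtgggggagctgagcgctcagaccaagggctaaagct
Atp5g2 (chr15:102671048-102671297, minus strand): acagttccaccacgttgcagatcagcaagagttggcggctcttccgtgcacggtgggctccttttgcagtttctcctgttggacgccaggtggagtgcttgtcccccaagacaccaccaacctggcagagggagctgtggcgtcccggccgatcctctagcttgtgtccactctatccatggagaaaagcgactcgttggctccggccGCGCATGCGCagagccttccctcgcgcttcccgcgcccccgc
Atp5g3 (chr2:73911327-73911576, minus strand): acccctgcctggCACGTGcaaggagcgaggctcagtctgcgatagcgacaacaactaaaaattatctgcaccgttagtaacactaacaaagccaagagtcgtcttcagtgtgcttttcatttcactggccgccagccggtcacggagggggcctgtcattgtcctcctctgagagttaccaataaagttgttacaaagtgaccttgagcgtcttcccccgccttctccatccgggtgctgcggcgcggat
Cox7a2l (chr17:83514334-83514583, minus strand): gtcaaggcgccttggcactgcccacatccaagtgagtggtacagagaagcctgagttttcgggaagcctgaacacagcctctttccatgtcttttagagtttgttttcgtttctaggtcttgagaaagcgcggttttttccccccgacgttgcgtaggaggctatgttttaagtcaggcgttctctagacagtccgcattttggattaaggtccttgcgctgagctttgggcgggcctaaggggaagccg
The capitals in the Ndufaf4 and Atp5g2 promoters are the palindromic core bound by NRF1, a regulator of many respiratory genes, 113 and 42 bases before the start. Those in the Atp5g1 and Atp5g3 promoters are CACGTG, the E-box bound by MYC and other basic helix-loop-helix factors, 44 and 238 bases before the start. The Cox7a2l stretch held none of the motifs searched.

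Of the 88 members, 73 had 79 promoters of 300 bases (250 before to 50 after the start) among the 32851 in the table, and 4 motifs were searched in them on both strands without overlap between motifs. The NRF1 core, with the letters in capitals in the Ndufaf4 sequence, stood in 7.59% of the members' promoters and 0.971% of all promoters. The YY1 motif AAGATGGCG stood in 11.4% and 1.4%, the ETS motif CCGGAAG, bound by GABP, in 21.5% and 8.86%, and the E-box CACGTG in 11.4% and 7.15%. Among the 43 genes with a promoter that rose after 6 h of TCR stimulation (below), 4 held the NRF1 core, 12 the ETS motif, 4 the YY1 motif and 5 the E-box, and among the other 30 the counts were 2, 5, 4 and 2. These are counts of letters in a fixed window and were not tested.

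Signals are given relative to the 75th percentile of each array's non-control spots, which lay between 807 and 1241 intensity units. Between 26065 and 29533 of 43379 spots per array were well above background, and the number of arrays limits the precision. The 2 untreated arrays differed over 143 repeated probes by no more than the noise of repeated spots (robust SD of the log2 difference 0.0344, expected 0.0343) and were counted as 1 sample, their mean. Over the members their log2 difference had an SD of 0.075 and was at most 0.182. The 2 arrays with 1 h of TCR stimulation carry opposite names in the scanner files and in the series value table, and the table's names were used. This choice was made with earlier results of these data known, so the interferon-induced genes are no independent check of it. With these names Isg15, an interferon-induced gene, had relative signals of 100.5 and 171 (0 h), 136 (1 h) and 48.8 (6 h of TCR) in cells given IFNβ, against 1.32 and 1.17 (0 h), 3.16 (1 h) and 3.15 (6 h) in cells without it. Mx1, another such gene, was between 0.411 and 49.0 on the 4 arrays with IFNβ, against 0.0258 to 0.112 on the 4 without. Il2, the cytokine that activated T cells make, was at 0.0168 and 0.0365 (0 h), 0.755 (1 h) and 38.1 (6 h of TCR) in cells given IFNβ, against 0.0306 and 0.0334 (0 h), 12.8 (1 h) and 47.6 (6 h) in cells without it. The early response gene Egr1 was between 2.37 and 3.47 without TCR stimulation, at 173 (with IFNβ) and 204 after 1 h, and at 44.7 and 30.9 after 6 h. Nothing in the labels says that the arrays came from separate animals or cultures. The p-values rest on how far the 7 conditions depart from an additive model. That spread holds the difference between IFNβ for 2 h and 7 h and any interaction of the treatments, besides technical noise. It is not a spread between replicates.

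After 6 h of TCR stimulation, 51 of the 85 measured members rose, 1 fell (Cox7a2l) and 33 did not pass the test, with IFNβ as a second term in the model (limma, 7 samples, Benjamini-Hochberg adjusted over all genes). The median change of the members was 0.93 on the log2 scale, a 1.9-fold rise, against 0.05 for all genes, and 38 of the 51 were at least 2-fold higher. In the whole array 22.3% of genes were called higher and 22.7% lower, against 60.0% of the members called higher. With this scaling the rises reached every complex: 4 of 7 complex I core subunits, 15 of 29 accessory subunits, 3 of 4 assembly factors, 2 of 4 subunits of complex II, 6 of 7 of complex III, 9 of 15 of complex IV, 4 of 5 of F1 and 7 of 10 of Fo and the stalks. The median relative signal of the members at 6 h was 37.3 with IFNβ and 38.4 without it, against 16.7 and 19.2 with IFNβ alone and 16.5 and 16.0 in untreated cells. For 73 members both arrays at 6 h lay above all 4 arrays without TCR stimulation (35.3% of all genes did), for 5 both lay below (31.7% of genes), and for 7 the groups overlapped.

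**Figure D1:**
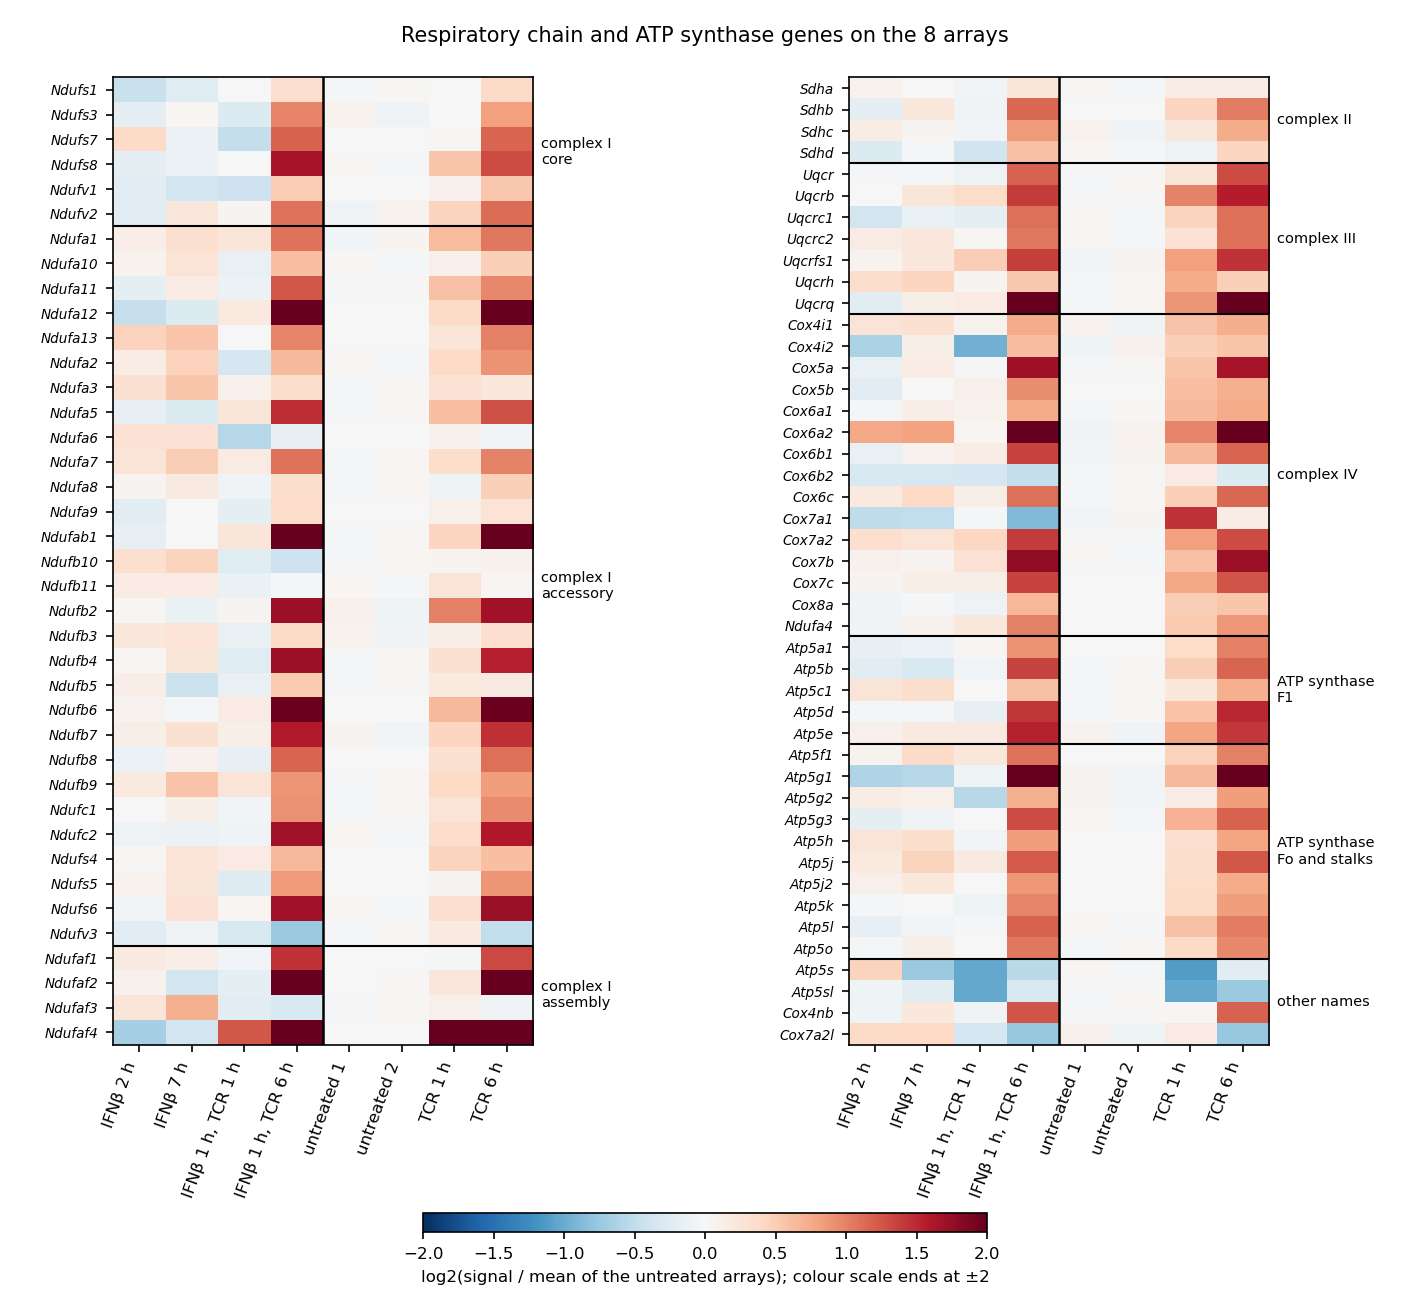
Log2 ratio of the signal of the measured members listed in the plot to the mean of the untreated arrays (colour, 75th percentile scaling), genes in rows by complex and the 8 arrays in columns, cells given IFNβ left of the line. The 2 columns with 6 h of TCR stimulation are red for most genes and the 2 columns with IFNβ alone are pale, but with quantile normalization the median TCR 6 h change is 0.17 instead of 0.93.

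The size of this shift depended on how the arrays were scaled. The members' probes are bright: their median lay between the 93.7th and 95.8th percentile of all genes on every array, and the upper range of signal widened at 6 h, where the 95th percentile of genes was 32.2 and 31.2 with and without IFNβ, against 18.4 and 21.2 with IFNβ alone and 16.9 and 17.1 in untreated cells. Of the 1931 genes in the brightest 10% by mean signal, which held 68 members, 44.3% were called higher and the median change was 0.62. Quantile normalization, which makes all arrays share 1 distribution, left 19 members higher and 6 lower (Cox7a2l, Ndufb10, Ndufv3, Ndufa6, Ndufb11 and Ndufa3), with a median of 0.17 and 55 of 85 above 0. In that setting 20.6% of all genes were called higher and 22.1% lower, against 22.4% of the members called higher, a share near that of all genes. All 19 were among the 51, and 2 of the 51 (Ndufa7 and Ndufs5) were below 0 with quantile normalization, at -0.03 each. Scaling to the array median instead moved the median of all genes to 0.38, that of the members to 1.25, and gave 64 members higher and none lower (5890 genes higher and 3490 lower in all, against 4377 and 4450).

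The count of members called also varied with the arrays used. Without the array with IFNβ and 6 h of TCR stimulation 12 members were called, all higher, which is 14.1% of the members against 11.8% of all genes called higher in that fit, a share near that of all genes. Without the array with 6 h of TCR stimulation alone the number was 33 (38.8% against 17.1% of all genes), and without the IFNβ 2 h array 34 of 85 (17.6% of all genes). For single conditions set against the untreated mean, 44 members were past 2-fold higher and none lower with IFNβ and 6 h of TCR stimulation (21.2% and 22.3% of all genes), and 42 and none with 6 h of TCR stimulation alone (21.5% and 22.0%). On slide 2 alone, which holds both 6 h arrays, 31 were called higher (36.5% against 15.7% of all genes), with a median of 0.90, and with the slide as a block 48 (56.5% against 20.6%). The 11 members called higher in all 19 alternatives were Ndufa12, Ndufab1, Ndufb6, Ndufc2, Ndufs6, Ndufaf2, Ndufaf4, Uqcrq, Cox5a, Cox7b and Atp5g1. The same count was not taken over all genes, so these 11 cannot be set against a share of all genes.

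**Figure D2:**
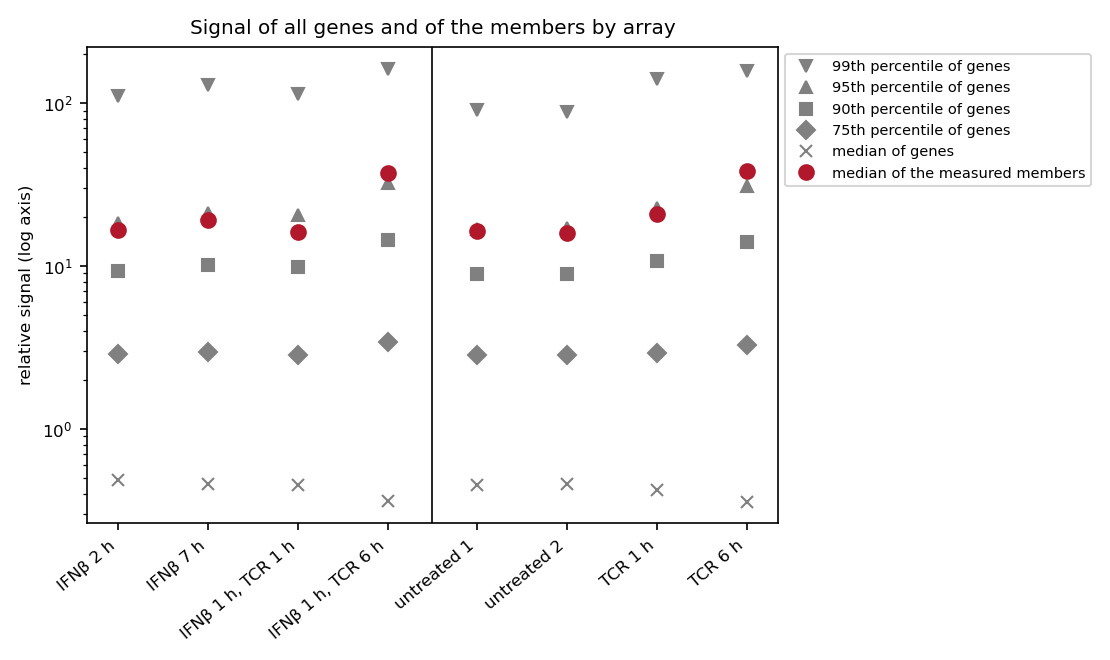
Relative signal (log axis) of the median and of 4 upper percentiles of all genes that passed the filter (grey) and of the members' median (red) on each array, cells given IFNβ left of the line. The members' median and the 95th percentile of genes both stand higher on the pair of arrays taken after 6 h of TCR stimulation, at 37.3 and 38.4 for the members' median against 16.0 to 19.2 without TCR stimulation.

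Markers of the cells in the preparation moved at the same time. Of the 5 T cell markers, Cd8a (-2.14), Cd8b1 (-1.92) and Cd3g (-1.27) fell on the log2 scale, and the list's summed relative signal was 166 and 149 at 6 h with and without IFNβ, against 313 to 476 on the 4 arrays without TCR stimulation. Of the B cell markers 3 of 4 fell, with sums of 3.46 and 2.94 against 8.42 to 26.9. Class II markers fell in 3 of 3 (8.04 and 6.16 against 13.4 to 30.6) and NK cell markers in 2 of 2 (0.0453 and 0.0406 against 0.0938 to 0.165). Myeloid markers fell in 1 of 4 (1.15 and 0.875 against 1.05 to 2.43) and erythroid markers in none of 2 (5.06 and 3.09 against 2.48 to 8.39). Cd4, the marker of the other T cell lineage, was at 0.0932 and 0.0999 against 0.0735 to 0.0903 and did not pass. No marker was at 0, and Ncr1 and Itgam were well above background on 2 and 4 arrays. The part of these markers in the members' changes was not tested. In such bulk samples fewer cells of a type and less RNA per cell cannot be told apart.

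**Figure D3:**
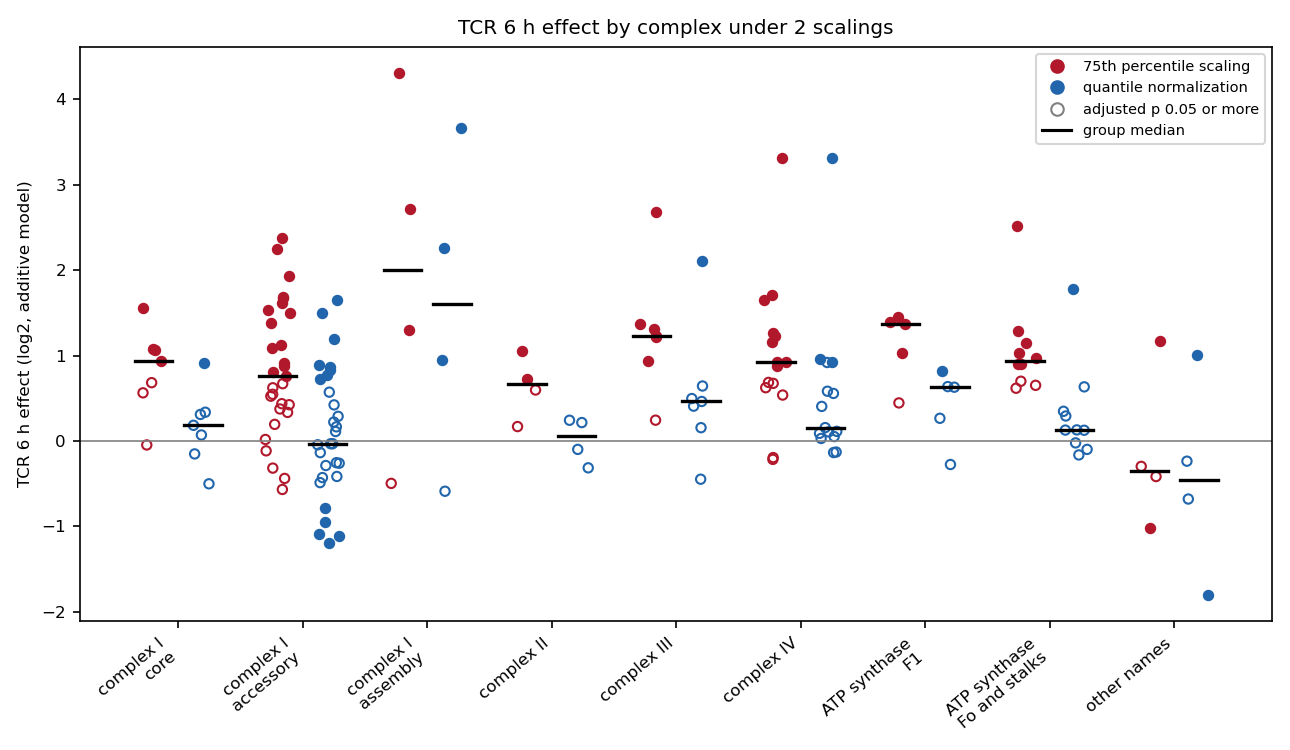
TCR 6 h effect of each measured member (log2, vertical axis) by complex, with 75th percentile scaling (red, left) and quantile normalization (blue, right). Filled points passed the test and bars are group medians. The medians stand higher in red than in blue in every group, and 6 members, 5 of them complex I accessory subunits, are called lower in blue.

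Among the 4 complex I assembly factors in the name pattern, which build the enzyme without staying in it, 3 rose. Foxred1 and Nubpl, complex I assembly factors that the pattern misses, did not pass in limma (0.45 and 0.21, adjusted p = 0.16 and 0.57). Ndufaf4 was at 1.58 and 1.96 (0 h), 5.96 (1 h) and 41.6 (6 h of TCR) in cells given IFNβ, against 2.49 and 2.53 (0 h), 10.8 (1 h) and 41.0 (6 h) in cells without it. All 4 stimulated arrays lay above the unstimulated ones, and the pair at 6 h lay furthest above. It was 19.8-fold higher at 6 h (log2 4.31 ± 0.28, SE; adjusted p = 0.00038), and 3.66 on the log2 scale with quantile normalization. Ndufaf2, a paralogue of Ndufa12 that holds its place during assembly, was at 2.07 and 1.52 (0 h), 1.73 (1 h) and 13.1 (6 h of TCR) in cells given IFNβ, against 1.94 and 1.99 (0 h), 2.30 (1 h) and 11.4 (6 h) in cells without it. The 6 h pair stood clear of the other 6 arrays, which overlapped among themselves, and the log2 change was 2.71 ± 0.27 (adjusted p = 0.00072). Ndufaf1, which acts on the membrane arm early in assembly, was at 2.54 and 2.46 (0 h), 2.17 (1 h) and 6.13 (6 h of TCR) in cells given IFNβ, against 2.24 and 2.26 (0 h), 2.23 (1 h) and 5.64 (6 h) in cells without it, and rose by 1.30 ± 0.22 (adjusted p = 0.0042). These 3 rises also passed with quantile normalization. Ndufaf3, which works together with Ndufaf4 in human cells, was at 1.89 and 2.63 (0 h), 1.37 (1 h) and 1.30 (6 h of TCR) in cells given IFNβ, against 1.56 and 1.64 (0 h), 1.71 (1 h) and 1.53 (6 h) in cells without it. Both 6 h arrays lay below the 4 unstimulated ones here, but the change of -0.50 did not pass (adjusted p = 0.23).

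The core subunits of complex I measured here, 7 in all, include those that carry its flavin and iron-sulfur centres. Ndufs8, which binds iron-sulfur clusters close to the membrane arm, was at 5.72 and 5.95 (0 h), 6.43 (1 h) and 20.1 (6 h of TCR) in cells given IFNβ, against 6.58 and 6.33 (0 h), 9.46 (1 h) and 16.0 (6 h) in cells without it. The 6 h arrays were the highest pair, and the 1 h array without IFNβ stood above the unstimulated arrays. Ndufs8 rose by 1.55 ± 0.27 (adjusted p = 0.0049) and was the only core subunit of the 7 that also passed with quantile normalization (0.92). Ndufv2, an iron-sulfur subunit next to the flavin, was at 10.3 and 13.9 (0 h), 12.4 (1 h) and 25.3 (6 h of TCR) in cells given IFNβ, against 11.3 and 12.5 (0 h), 16.1 (1 h) and 25.8 (6 h) in cells without it. Ndufs7, which holds the last cluster before ubiquinone, was at 16.0 and 11.3 (0 h), 8.80 (1 h) and 27.8 (6 h of TCR) in cells given IFNβ, against 12.3 and 12.3 (0 h), 12.4 (1 h) and 27.4 (6 h) in cells without it. Both were highest at 6 h and rose by 1.08 ± 0.26 and 1.07 ± 0.28 (adjusted p = 0.016 and 0.024), while with quantile normalization their changes were 0.34 and 0.31 and did not pass. Ndufs3 rose too (0.93; 0.18 and not called with quantile normalization). Ndufv1, the flavin-binding subunit that takes electrons from NADH, had a change of 0.68 (adjusted p = 0.056).

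The 29 accessory subunits of complex I, which surround this core, had changes from -0.57 for Ndufv3 to 2.37 for Ndufa12. Ndufa12, which takes the place of Ndufaf2 in the finished enzyme, was at 18.1 and 20.7 (0 h), 28.7 (1 h) and 115 (6 h of TCR) in cells given IFNβ, against 24.8 and 25.1 (0 h), 32.4 (1 h) and 108 (6 h) in cells without it. The 6 h pair stood apart, at 5.18-fold in the model (log2 2.37 ± 0.24; adjusted p = 0.00074). Ndufab1, the mitochondrial acyl carrier protein that also serves lipoic acid and iron-sulfur cluster synthesis, was at 7.12 and 8.01 (0 h), 9.42 (1 h) and 36.8 (6 h of TCR) in cells given IFNβ, against 7.84 and 8.13 (0 h), 10.8 (1 h) and 37.0 (6 h) in cells without it. Here too the 6 h pair stood clear of the other arrays, with a log2 change of 2.25 ± 0.22 (adjusted p = 0.00071). Ndufb6, a membrane arm subunit, was at 8.68 and 8.11 (0 h), 9.32 (1 h) and 32.2 (6 h of TCR) in cells given IFNβ, against 8.30 and 8.30 (0 h), 13.0 (1 h) and 32.4 (6 h) in cells without it. It rose by 1.93 ± 0.24 (adjusted p = 0.0015), with unstimulated arrays within a narrow range. Of the 15 accessory subunits that rose, 8 also passed with quantile normalization: Ndufa12, Ndufab1, Ndufb6, Ndufc2, Ndufb2, Ndufs6, Ndufb4 and Ndufa5.

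In the other direction, the accessory subunit Ndufb11 was at 47.9 and 50.5 after 6 h of TCR stimulation, against 55.0, 54.9, 50.5 and 47.5 without it, and the groups overlapped. Its change was -0.12 (adjusted p = 0.73), but -0.95 with quantile normalization, where it was called lower. Ndufb10, of the membrane arm, was at 32.2 and 35.1 (0 h), 21.9 (1 h) and 19.3 (6 h of TCR) in cells given IFNβ, against 25.1 and 26.5 (0 h), 26.9 (1 h) and 27.3 (6 h) in cells without it, with overlapping groups. Its changes in the 2 scalings were -0.44 and -1.20. Those of Ndufa6 were -0.32 and -1.09, those of Ndufv3 -0.57 and -1.11, and those of Ndufa3 0.02 and -0.78. These 5 subunits, singled out after their values were seen, were called lower with quantile normalization and not with 75th percentile or median scaling. Ndufab1, of the same complex, had changes of 2.25 and 1.50, but other accessory subunits lay close to these 5. Ndufb3 had 0.19 and -0.49 and Ndufa8 0.33 and -0.43, and neither was called in either scaling. The medians of the 29 accessory subunits were 0.755 and -0.033.

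Complex II, which is also the succinate dehydrogenase of the citric acid cycle, has no subunit from mitochondrial DNA. Its iron-sulfur subunit Sdhb was at 19.9 and 26.6 (0 h), 21.8 (1 h) and 50.6 (6 h of TCR) in cells given IFNβ, against 22.6 and 22.9 (0 h), 30.8 (1 h) and 46.1 (6 h) in cells without it. The 6 h arrays were the highest, and Sdhb rose by 1.06 ± 0.27 (adjusted p = 0.021). Sdhc, a membrane anchor, was at 5.67 and 5.29 (0 h), 4.90 (1 h) and 9.21 (6 h of TCR) in cells given IFNβ, against 5.37 and 4.87 (0 h), 5.97 (1 h) and 8.59 (6 h) in cells without it, and rose by 0.73 ± 0.23 (adjusted p = 0.043). Sdhd, the other anchor, was at 9.88 and 11.8 (0 h), 9.11 (1 h) and 18.0 (6 h of TCR) in cells given IFNβ, against 12.2 and 11.7 (0 h), 11.2 (1 h) and 16.2 (6 h) in cells without it. Its change of 0.60 did not pass (adjusted p = 0.087) and turned to -0.10 with quantile normalization. Sdha, the flavoprotein that oxidises succinate, was at 6.83 and 6.53 (0 h), 6.29 (1 h) and 7.67 (6 h of TCR) in cells given IFNβ, against 6.63 and 6.40 (0 h), 7.23 (1 h) and 7.26 (6 h) in cells without it, with all 8 arrays close to each other. At this brightest probe its change was 0.17 (adjusted p = 0.57), and -0.32 with quantile normalization. Over the mean of its 3 probes the change was -0.78, and Sdha was called lower there (limma, adjusted p = 0.033). None of the 4 was called with quantile normalization.

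In complex III, 6 of 7 members rose and Uqcrh did not pass. Uqcrq, a small subunit that lies next to cytochrome b, was at 26.3 and 32.9 (0 h), 34.0 (1 h) and 209.8 (6 h of TCR) in cells given IFNβ, against 29.7 and 31.1 (0 h), 55.9 (1 h) and 178 (6 h) in cells without it. The 6 h pair stood far above, and the 1 h array without IFNβ above the unstimulated arrays. Uqcrq was 6.38-fold higher at 6 h (log2 2.67 ± 0.29; adjusted p = 0.00097), and 2.11 with quantile normalization, where it also passed. Uqcrb, another small subunit, was at 9.72 and 11.4 (0 h), 12.4 (1 h) and 25.6 (6 h of TCR) in cells given IFNβ, against 9.49 and 9.82 (0 h), 19.2 (1 h) and 28.8 (6 h) in cells without it. Uqcrfs1, the Rieske iron-sulfur protein, was at 20.6 and 22.6 (0 h), 27.6 (1 h) and 51.1 (6 h of TCR) in cells given IFNβ, against 18.9 and 20.2 (0 h), 34.3 (1 h) and 53.1 (6 h) in cells without it. For Uqcrfs1 both 1 h arrays already stood above the 4 unstimulated ones. Uqcrb rose by 1.37 ± 0.27 and Uqcrfs1 by 1.31 ± 0.23 (adjusted p = 0.0075 and 0.0054), but neither passed with quantile normalization (0.64 and 0.50). Uqcrh, the hinge protein, was at 85.8 and 90.2 (0 h), 69.8 (1 h) and 97.5 (6 h of TCR) in cells given IFNβ, against 65.7 and 68.3 (0 h), 112 (1 h) and 93.3 (6 h) in cells without it. Its highest array was the one with 1 h of TCR stimulation alone, and its 6 h change of 0.24 did not pass (adjusted p = 0.55).

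In complex IV, 9 of the 15 measured members rose, with a median change of 0.93 (0.16 with quantile normalization). Cox5a, which lies on the matrix side, was at 29.7 and 36.8 (0 h), 32.6 (1 h) and 108 (6 h of TCR) in cells given IFNβ, against 32.4 and 33.8 (0 h), 48.4 (1 h) and 104 (6 h) in cells without it. It was highest at 6 h and rose by 1.65 ± 0.26 (adjusted p = 0.0034). Cox7b, a small transmembrane subunit, was at 30.2 and 29.6 (0 h), 34.8 (1 h) and 98.0 (6 h of TCR) in cells given IFNβ, against 29.1 and 28.0 (0 h), 42.9 (1 h) and 95.0 (6 h) in cells without it. The 6 h pair stood clear of the rest, with a change of 1.70 ± 0.23 (adjusted p = 0.0019). Both genes passed with quantile normalization as well (0.92 and 0.96). Ndufa4, first described as a complex I subunit and now placed in complex IV, was at 26.5 and 29.6 (0 h), 32.2 (1 h) and 56.2 (6 h of TCR) in cells given IFNβ, against 27.9 and 27.9 (0 h), 40.1 (1 h) and 51.0 (6 h) in cells without it. It rose by 0.93 ± 0.23 (adjusted p = 0.02), and its change was 0.11 and not called with quantile normalization. Its paralogue Ndufa4l2 was not found on the array under that name.

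Several complex IV subunits come as tissue isoforms. Cox6a2, the heart and skeletal muscle form of subunit 6a, was at 0.193 and 0.199 (0 h), 0.117 (1 h) and 1.83 (6 h of TCR) in cells given IFNβ, against 0.108 and 0.119 (0 h), 0.223 (1 h) and 1.39 (6 h) in cells without it. The 2 arrays at 6 h stood apart from the other 6, all 8 being well above background, and Cox6a2 was 9.94-fold higher (log2 3.31 ± 0.41; adjusted p = 0.0015; 3.31 with quantile normalization). Cox6a1, the widespread form, was at 75.5 and 84.2 (0 h), 80.8 (1 h) and 129 (6 h of TCR) in cells given IFNβ, against 76.2 and 78.0 (0 h), 121 (1 h) and 129 (6 h) in cells without it. The groups at 6 h and without stimulation did not overlap, but the change of 0.69 did not pass (adjusted p = 0.071; 0.05 with quantile normalization). Cox6b1, also widespread, was at 8.42 and 9.80 (0 h), 10.3 (1 h) and 23.7 (6 h of TCR) in cells given IFNβ, against 8.97 and 9.65 (0 h), 14.6 (1 h) and 20.9 (6 h) in cells without it, and rose by 1.26 ± 0.26 (adjusted p = 0.0089; 0.56 and not called with quantile normalization). Cox6b2, the testis form, was at 0.710 and 0.701 (0 h), 0.693 (1 h) and 0.635 (6 h of TCR) in cells given IFNβ, against 0.862 and 0.896 (0 h), 0.989 (1 h) and 0.728 (6 h) in cells without it. Its change of -0.22 did not pass and was 0.11 with median scaling.

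Cox7a2, the widespread form of subunit 7a, was at 42.6 and 40.5 (0 h), 44.7 (1 h) and 89.2 (6 h of TCR) in cells given IFNβ, against 34.2 and 33.2 (0 h), 59.5 (1 h) and 83.6 (6 h) in cells without it, and rose by 1.16 ± 0.26 (adjusted p = 0.012; 0.40 and not called with quantile normalization). Cox7a1, the muscle form, was at 0.100 and 0.101 (0 h), 0.140 (1 h) and 0.0773 (6 h of TCR) in cells given IFNβ, against 0.137 and 0.148 (0 h), 0.387 (1 h) and 0.158 (6 h) in cells without it. Its highest array was that with 1 h of TCR stimulation alone, and its 6 h change of -0.20 did not pass and turned to 0.16 with quantile and 0.13 with median scaling. Cox4i1, the widespread form of subunit 4, was at 76.6 and 78.9 (0 h), 67.3 (1 h) and 107 (6 h of TCR) in cells given IFNβ, against 67.0 and 61.0 (0 h), 94.7 (1 h) and 105 (6 h) in cells without it. Its change of 0.54 did not pass (adjusted p = 0.15) and was -0.13 with quantile normalization. Cox4i2, the form known from lung and low oxygen, was well above background on 5 arrays, with relative signals between 0.00816 and 0.0244, and did not pass. Cox8a, the widespread form of subunit 8, was at 83.2 and 85.0 (0 h), 81.8 (1 h) and 139 (6 h of TCR) in cells given IFNβ, against 88.2 and 86.5 (0 h), 122 (1 h) and 129 (6 h) in cells without it, with a change of 0.62 that did not pass (adjusted p = 0.089; 0.03 with quantile normalization). Cox8b, Cox8c and Cox7b2, forms known from muscle or testis, were not well above background on any of the 8 arrays and were not tested.

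Of the F1 subunits of ATP synthase, which form the catalytic head, 4 of 5 rose. The catalytic beta subunit Atp5b was at 60.3 and 56.2 (0 h), 66.8 (1 h) and 178 (6 h of TCR) in cells given IFNβ, against 68.1 and 70.8 (0 h), 97.8 (1 h) and 156 (6 h) in cells without it. It was highest at 6 h and rose by 1.40 ± 0.26 (adjusted p = 0.0059), and 0.82 with quantile normalization, where it also passed. Atp5d, the delta subunit of the central stalk, was at 13.6 and 13.6 (0 h), 12.3 (1 h) and 37.3 (6 h of TCR) in cells given IFNβ, against 13.6 and 14.0 (0 h), 20.6 (1 h) and 39.5 (6 h) in cells without it. Atp5e, the epsilon subunit beside it, was at 37.2 and 39.4 (0 h), 39.3 (1 h) and 101 (6 h of TCR) in cells given IFNβ, against 36.3 and 33.2 (0 h), 59.7 (1 h) and 92.5 (6 h) in cells without it. Both were highest at 6 h, with rises of 1.45 ± 0.26 and 1.37 ± 0.27 (adjusted p = 0.0056 and 0.0077). Atp5a1, the alpha subunit, rose by 1.03 ± 0.22 (adjusted p = 0.011). These 3 did not pass with quantile normalization (0.64, 0.63 and 0.27). Atp5c1, the rotating gamma subunit, had 81.0 and 88.5 after 6 h of TCR stimulation, against 64.5, 69.4, 52.5 and 55.8 without it. Its change of 0.45 did not pass (adjusted p = 0.18) and was -0.28 with quantile normalization.

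The 3 genes for subunit c, the membrane ring that turns as protons pass, encode the same mature protein behind different import signals, and their promoters are shown above. Atp5g1 was at 10.1 and 10.4 (0 h), 14.5 (1 h) and 71.9 (6 h of TCR) in cells given IFNβ, against 15.9 and 14.8 (0 h), 23.9 (1 h) and 68.6 (6 h) in cells without it. The 6 h pair stood clear of all others, and among the unstimulated arrays those with IFNβ were lower than the untreated ones. Atp5g1 was 5.71-fold higher at 6 h (log2 2.51 ± 0.27; adjusted p = 0.00088), and 1.78 with quantile normalization, where it also passed. Atp5g3 was at 49.8 and 53.6 (0 h), 56.4 (1 h) and 139 (6 h of TCR) in cells given IFNβ, against 58.3 and 54.7 (0 h), 91.3 (1 h) and 128 (6 h) in cells without it, and rose by 1.29 ± 0.27 (adjusted p = 0.0093; 0.63 and not called with quantile normalization). Atp5g2 was at 36.7 and 35.5 (0 h), 22.6 (1 h) and 54.0 (6 h of TCR) in cells given IFNβ, against 34.2 and 31.8 (0 h), 36.9 (1 h) and 58.6 (6 h) in cells without it. It was highest at 6 h too, but the change of 0.65 did not pass (adjusted p = 0.097), turned to -0.16 with quantile normalization, and was 0.997 at the gene's second probe. The differences between the 3 genes were not tested. Atp5l, subunit g of the membrane part, was at 26.8 and 28.9 (0 h), 29.5 (1 h) and 68.2 (6 h of TCR) in cells given IFNβ, against 30.8 and 29.4 (0 h), 45.2 (1 h) and 61.2 (6 h) in cells without it, and rose by 1.15 ± 0.26 (adjusted p = 0.013; 0.35 and not called with quantile normalization).

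**Figure D4:**
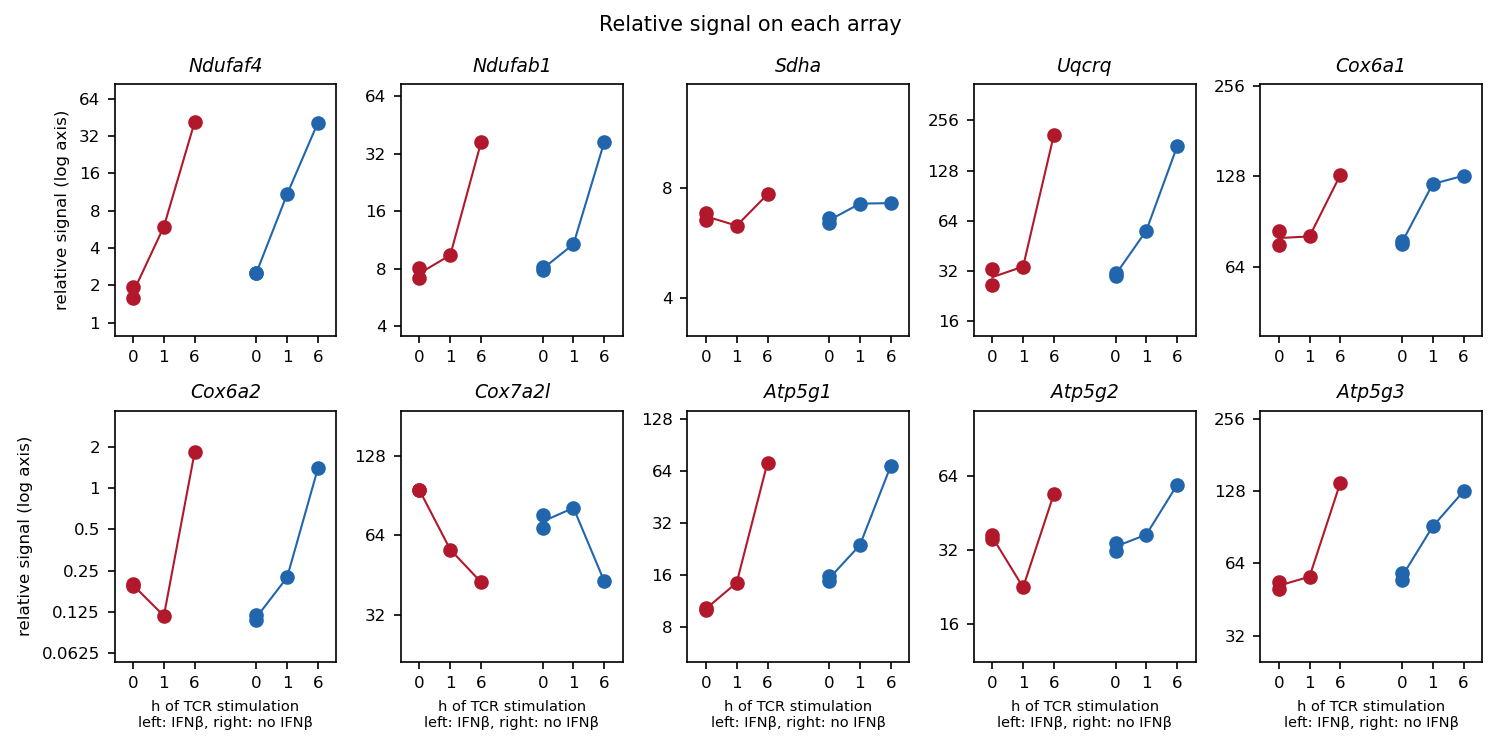
Relative signal (log axis, a range of its own in each panel) against hours of TCR stimulation in cells given IFNβ (red, left) and without IFNβ (blue, right). Each point is 1 array, and lines join the values through the geometric mean of the 2 arrays at 0 h. Ndufaf4, Ndufab1, Uqcrq, Cox6a2 and Atp5g1 are highest at 6 h in both series and their TCR 6 h effect stays above 0 with quantile normalization, Cox7a2l is lowest at 6 h, and Sdha is nearly level here, with an effect of -0.32 with quantile normalization.

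Of the 4 names outside the complexes proper, Cox7a2l has been described as a factor that joins complexes III and IV into supercomplexes. Whether it has that function in cells of this mouse background was not examined. Cox7a2l was at 94.5 and 94.7 (0 h), 56.4 (1 h) and 42.4 (6 h of TCR) in cells given IFNβ, against 76.4 and 68.0 (0 h), 81.1 (1 h) and 42.7 (6 h) in cells without it. Both 6 h arrays lay below every other array, and Cox7a2l fell by 1.02 ± 0.28 on the log2 scale (adjusted p = 0.026). Its change was -1.80 with quantile normalization, also called, and -0.69 with median scaling, not called. The call was also lost with normexp background correction (-0.81), with the slide as a block or slide 2 alone (-0.92 each), and without any 1 of the arrays with IFNβ for 2 h (-0.96), IFNβ for 7 h (-0.95), 6 h of TCR stimulation (-1.03) or both treatments at 6 h (-1.02). Cox4nb, which encodes a subunit of the endoplasmic reticulum membrane complex, was at 1.03 and 1.27 (0 h), 1.04 (1 h) and 2.61 (6 h of TCR) in cells given IFNβ, against 1.08 and 1.11 (0 h), 1.11 (1 h) and 2.48 (6 h) in cells without it, and rose by 1.18 ± 0.23 (adjusted p = 0.0077). Atp5sl, which takes part in complex I assembly in human cells, was at 3.50 and 3.19 (0 h), 1.82 (1 h) and 2.97 (6 h of TCR) in cells given IFNβ, against 3.63 and 3.77 (0 h), 1.82 (1 h) and 2.22 (6 h) in cells without it. Atp5s and Atp5sl did not pass (-0.30 and -0.42).

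A pair of contrasts on slide 2 share no array: IFNβ for 1 h then TCR for 6 h against IFNβ alone for 7 h, and TCR for 6 h against the untreated array of that slide. In the first, 35 members were past 2-fold higher and 2 past 2-fold lower, with a median of 0.90 (20.8% and 26.2% of all genes), and in the second 40 and 0, with a median of 0.96 (20.5% and 22.2%). Past 2-fold higher in both were 34 members, 97.1% of the first list and 85.0% of the second. The overlap of the 2 lists over all genes was not counted. These values use 75th percentile scaling. Against the untreated mean, 15 members were past 2-fold in either direction with both treatments at 6 h under quantile normalization. With 75th percentile scaling there were 44, all higher. With 6 h of TCR stimulation alone the numbers were 11 in either direction and 42, all higher. How the 15 and the 11 divide into higher and lower was not counted. Above 0 were 75 members in the first contrast (47.2% of all genes) and 77 in the second (54.9%). The signs were both positive for 73 members, both negative for 6 and opposite for 6. Across the 85 members Pearson's r of the 2 sets of log2 changes was 0.936, against 0.829 across 19466 genes, a description over genes that share these 4 arrays and are no replicates.

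Where the array carried several probes for a gene, they did not always move together. Of 27 members with at least 2 kept probes, 16 had log2 changes within 0.5 of the brightest probe's, 7 had one more than 1 away and 4 had one of the opposite sign (Atp5j2, Ndufb2, Ndufv2 and Sdha). For Atp5j2, Ndufb2 and Ndufv2 the other probe was dim, at mean relative signals of 0.431, 0.177 and 0.0639. For Sdha the other 2 probes had changes between -1.51 and -1.0, at relative signals up to 4.48. The other 2 probes of Ndufaf4 had changes of 2.65 and 4.05. Cross-hybridisation with the processed pseudogenes that many of these genes have was not tested.

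At 1 h of TCR stimulation 1 member rose, Ndufaf4, and 84 did not pass (2.58% of all genes were called higher and 1.73% lower). Its log2 change was 1.95 ± 0.28 (3.85-fold; adjusted p = 0.026), and 1.88 with quantile normalization. The call was lost with the names in the scanner files, with normexp background correction, and without the IFNβ 2 h array, the IFNβ 7 h array or either 1 h array. The members' median change was 0.10, and -0.13 with quantile normalization. The 2 arrays of this time differed: against the untreated mean the median was -0.03 with IFNβ, with 35 of 85 members above 0, and 0.38 without IFNβ, with 78 above 0. Past 2-fold were 1 member higher and 2 lower with IFNβ (10.5% and 6.93% of all genes), and 3 higher and 2 lower without it (9.2% and 8.67%). Set directly against each other, 83 of 85 members were lower on the array with IFNβ than on the array without it, by a median of 0.39 on the log2 scale, where 42.9% of all genes were higher with IFNβ. None was past 2-fold higher and 2 were past 2-fold lower with IFNβ (9.92% and 5.59% of all genes). This difference has 1 array on each side and no test, and its direction rests on the value table's names for these 2 arrays. The 95th percentile of all genes was also lower on the array with IFNβ, at 20.5 against 22.6. The members' median lay at the 93.7th percentile with IFNβ and the 94.6th without it. The part of the scaling in this difference was not tested.

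The change between 1 h and 6 h of stimulation was tested in the same model. In TCR 6 h minus TCR 1 h, 32 members were higher and 1 lower (16.5% and 15.6% of all genes), 31 of the 32 being among the 51 that rose at 6 h. With quantile normalization 15 were higher and 2 lower (14.8% and 13.9% of all genes), with a median of 0.33 instead of 0.82, and the 15 are 17.6% of the members, near the share of all genes. The 3 with the largest differences were Cox6a2 (3.30 ± 0.44; adjusted p = 0.0039), Ndufaf2 (2.61 ± 0.29; adjusted p = 0.0025) and Ndufaf4 (2.36 ± 0.30; adjusted p = 0.0036), all of which passed with quantile normalization. Cox7a1 was the member lower at 6 h than at 1 h (-1.08 ± 0.31; adjusted p = 0.042), a call lost in 12 of 17 alternatives, among them quantile normalization (-0.79), median scaling (-0.8) and leaving out any 1 of the 6 treated arrays (-1.45 to -0.71). The count was 7, all higher, without either the 1 h or the 6 h array of cells given IFNβ, 8.24% of the members against 7.06% and 7.3% of all genes called higher, again near the share of all genes. It was 15 without the array with 6 h of TCR stimulation alone (17.6% against 10.4% of all genes) and 23 without that with 1 h alone (27.1% against 10.2%). Without the IFNβ 7 h array it was 24 (28.2% against 14.8%) and without the IFNβ 2 h array 21 (24.7% against 13.7%). With the slide as a block 12 were called higher (14.1% against 7.86%). The 1 h arrays lie on slide 1 and the 6 h arrays on slide 2.

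IFNβ itself moved no member past the threshold (limma; the smallest adjusted p of a member was 0.38), and across all genes 13 were higher and none lower, 0.0662%, with 1686 genes at an unadjusted p under 0.05. In the same limma test the interferon-induced gene Mx1 was at 7.07 ± 0.915 on the log2 scale and missed the threshold (adjusted p = 0.091). Isg15, at 5.5 ± 0.52, had an adjusted p of 0.05. A miss in this test therefore does not show that a member was unchanged. The members' median was -0.09. The largest estimates were 0.16 ± 0.21 for Ndufa3 and 0.15 ± 0.34 for Cox6a2 upward, and -0.95 ± 0.24 for Cox7a1 and -0.51 ± 0.35 for Cox4i2 downward. Against the untreated mean none of the 85 members was past 2-fold after 2 h or 7 h of IFNβ alone, with medians of 0.04 and 0.11, while 9.85% and 10.5% of all genes were past 2-fold higher and 5.2% and 7.04% past 2-fold lower. The summed B cell markers were 26.9 and 23.3 on these arrays against 8.68 and 8.42 on the untreated ones, and their part was not tested.

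At 6 h of TCR stimulation the members' levels with and without IFNβ lay close together. Against TCR alone, the array with IFNβ had 55 of 85 members above 0 (50.9% of all genes), a median of 0.05 on the log2 scale, none past 2-fold higher and 1, Cox7a1, past 2-fold lower (2.29% and 3.12% of all genes). The interaction of IFNβ with 6 h of TCR stimulation was tested with 1 residual degree of freedom, taken from IFNβ for 2 h against 7 h. It called no gene of 19578 (limma; 1598 had an unadjusted p under 0.05), and the members' smallest adjusted p was 0.75. The largest estimates were 0.65 ± 0.46 for Atp5g1 and 0.57 ± 0.47 for Atp5sl upward, and -0.88 ± 0.47 for Ndufb10 and -0.72 ± 0.56 for Ndufaf3 downward. A p that misses the threshold in so small a design does not show that IFNβ had no effect.

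Genes that work beside the chain were taken as 5 lists, whose counts stand against 22.3% of all genes called higher at 6 h and 22.7% lower. Of 25 measured genes for assembly of complexes III and IV and for parts that the name pattern misses, 10 rose at 6 h and 1 fell, with a median of 0.66 (0.45 with quantile normalization). Cycs, which encodes cytochrome c, was at 12.6 and 26.4 (0 h), 35.6 (1 h) and 111 (6 h of TCR) in cells given IFNβ, against 13.4 and 13.9 (0 h), 34.7 (1 h) and 110.0 (6 h) in cells without it. It rose by 2.77 ± 0.36 (adjusted p = 0.0018), Lrpprc, which stabilises mitochondrial mRNAs, by 2.36 ± 0.34 (adjusted p = 0.0024), and Lyrm7, a chaperone of the Rieske protein, fell by 3.34 (adjusted p = 0.0033). In the citric acid cycle 7 of 13 rose and none fell (median 0.91, and 0.29 with quantile normalization), with the enzymes Idh3a at 2.30, Fh1 at 1.59 and Mdh2 at 1.54 on the log2 scale. Of 14 measured genes for ubiquinone synthesis and electron entry, 10 rose and 1 fell (median 1.55, and 1.21), among them Coq10b at 3.02, Coq4 at 2.86 and Pdss1 at 2.57, against Etfdh, which links fatty acid oxidation to ubiquinone, at -1.78.

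The list for expression and upkeep of mitochondrial DNA had 8 of 10 measured genes higher and 1 lower (median 1.11, and 0.60 with quantile normalization). Top1mt, the mitochondrial topoisomerase, was at 0.572 and 0.474 (0 h), 0.715 (1 h) and 9.52 (6 h of TCR) in cells given IFNβ, against 1.01 and 1.05 (0 h), 0.753 (1 h) and 8.63 (6 h) in cells without it. Both 6 h arrays stood apart, with a change of 3.73 ± 0.33 (adjusted p = 0.00056). Peo1, the helicase that unwinds mitochondrial DNA, rose by 2.32 ± 0.26 (adjusted p = 0.0011), Lonp1, a matrix protease, by 2.94 ± 0.24 (adjusted p = 0.00051), and Polg2, the accessory subunit of the mitochondrial DNA polymerase, fell by 1.66 (adjusted p = 0.013). Of 10 nuclear regulators of respiratory genes 4 rose and 1 fell, Nfe2l2 (-1.33), with a median of 0.70 (0.60 with quantile normalization). Pprc1, a coactivator of the PGC-1 family, was at 0.976 and 0.960 (0 h), 4.14 (1 h) and 16.6 (6 h of TCR) in cells given IFNβ, against 1.77 and 1.83 (0 h), 7.13 (1 h) and 18.1 (6 h) in cells without it, with both times above all unstimulated arrays. It rose by 2.08 ± 0.27 at 1 h (adjusted p = 0.019) and 3.76 ± 0.27 at 6 h (adjusted p = 0.00042). Gabpb1, a subunit of the factor that binds the ETS motif above, rose at both times (2.07 and 2.60; adjusted p = 0.036 and 0.002), and Nrf1 rose at 6 h by 0.92 ± 0.23 (adjusted p = 0.02). Gabpa, the other GABP gene in the list, did not pass in limma at 1 h or 6 h (-0.08 and 0.68; adjusted p = 0.88 and 0.056). Neither did Yy1 (0.09 and 0.71; adjusted p = 0.9 and 0.1).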

How the data were processed

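Each array holds probe intensities of labelled cRNA, background-subtracted and detrended by Agilent Feature Extraction 10.7.3.1 per the file headers (9.5.3.1 per the submitters' processing notes). Per the labels, total RNA was labelled with a fluorescent dye. From the deposited intensities, log2 values were taken relative to each array's 75th percentile over non-control spots, outlier spots were left out, spots of a probe were averaged, and probes well above background on at least 2 of 8 arrays were kept, the brightest per gene name. The deposited series value table holds the same intensities, each column multiplied by 1 factor, and its columns for both arrays with 1 h of TCR stimulation match each other's scanner file. Its names were used.

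limma 3.58.1 in R 4.3.3 was fitted to all genes with terms for IFNβ, TCR 1 h and TCR 6 h over 7 samples (3 residual degrees of freedom), or with interactions (1), and p-values were adjusted by Benjamini-Hochberg with a threshold of 0.05. Every adjusted p in the text is from limma. On simulated data of 19403 genes, the TCR 6 h test recovered 64 of 100 genes changed by 2 on the log2 scale. It recovered 4 of 100 changed by 1, with 5 false calls. Only 100 genes of each size were changed there, with independent normal noise. The real fit called 4377 genes higher and 4450 lower. The adjusted threshold is looser where more genes change, so these rates do not describe the real test. Named are the largest called changes in each complex and comparison, complex II, the paired isoforms and the 3 largest in each companion list, and other genes were named after their values were seen. The totals include 1 member that is not reported by name here. The members and lists were chosen with earlier results of these data known. Figures were drawn with matplotlib 3.10.9 from tables made with pandas 2.3.3 in Python 3.11.15 and the R package data.table (version 1.17.8). Alternatives were separate untreated arrays, median and quantile scaling, normexp background correction, other probe filters, slides, array names and arrays left out.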

Additional observations from a re-analysis of the deposited data

Results flagged for a closer look

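Members whose TCR effect differed between 1 h and 6 h in a test of the difference itself were looked at again. In TCR 6 h minus TCR 1 h, 32 members were higher and 1 lower (limma, adjusted over all genes), against 16.5% and 15.6% of all genes, and with quantile normalization 15 were higher and 2 lower, against 14.8% and 13.9%. The largest were Cox6a2 at 3.3, Ndufaf2 at 2.61 and Ndufaf4 at 2.36 on the log2 scale, and the member lower at 6 h was Cox7a1 at -1.08. The 1 h arrays lie on slide 1 and the 6 h arrays on slide 2, and the part of the slide was not tested beyond the fit with the slide as a block, which called 12 members higher (14.1%, against 7.86% of all genes). No treated group had enough arrays for a check of single outlying arrays.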

How the results depend on the processing

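For the TCR 6 h effect, 52 members were called, against 25 with quantile normalization, 22 with normexp background correction, 31 on slide 2 alone and 12 to 53 when 1 array was left out; the median change of 0.925 was 1.254 with median scaling, 0.165 with quantile normalization and 0.836 to 1.042 with an array left out. For the TCR 1 h effect, 1 member was called, against 2 with separate untreated arrays or with probes well above background on all arrays, 0 with normexp or the scanner files' names, and 0 to 1 with an array left out; the median of 0.101 was -0.125 with quantile normalization, -0.303 with normexp and -0.094 to 0.368 with an array left out. For TCR 6 h minus TCR 1 h, 33 members were called, against 53 with separate untreated arrays, 54 with median scaling, 17 with quantile normalization, 19 with normexp, 12 with the slide as a block and 7 to 33 with an array left out; the median of 0.816 was 1.095, 0.333 and 1.262 with median scaling, quantile normalization and normexp, and 0.558 to 1.057 with an array left out. Among all genes the TCR 6 h effect called 8827 of 19627. The number was 8383 with quantile normalization, 3403 with normexp and 6420 on slide 2 alone. For the TCR 1 h effect 845 genes were called, 2505 with separate untreated arrays and 22 with normexp. For TCR 6 h minus TCR 1 h it was 6288, 7586 with separate untreated arrays and 6861 with median scaling. It was 5623 with quantile normalization, 1976 with normexp and 2803 with the slide as a block. The IFNβ median of -0.091 was 0.178 with normexp and 0.164 with the scanner files' names. Past 2-fold in either direction against untreated were 15 members with IFNβ and 6 h of TCR stimulation under quantile normalization, against 44, all higher. With 6 h of TCR stimulation alone there were 11 in either direction, against 42, all higher. The matching numbers over all genes under quantile normalization were not counted.

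Directions turned for Cox6a2 under IFNβ (-0.258 with normexp, -0.051 on slide 1 alone), for Cox4i2 under IFNβ (0.045 on slide 2 alone, 0.346 with the scanner files' names), and in the TCR 6 h effect for Sdha (-0.315 with quantile normalization, -0.782 over the mean of its probes), Sdhd (-0.099), Cox4i1 (-0.13) and Atp5g2 (-0.164) with quantile normalization, Cox6b2 (0.112) with median scaling and Cox7a1 (0.133 and 0.156 with median and quantile scaling). Over all named genes and alternatives, 773 values kept direction and side of the threshold, 87 lost the call, 11 gained it and 12 turned. Fits without an array have fewer samples; the cause of the other changes was not tested. Calls within the IFNβ and interaction effects were 0 members in each alternative run. TCR 1 h effects without both 1 h arrays could not be fitted. With 1 array per treated condition the lone array of a group is assumed to vary like the others. No paired analysis was possible because each treated condition has 1 array, so that the groups compared share fewer than 2 replicate numbers.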

Other observations

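Probes for subunits that mitochondrial DNA encodes, chosen after their values were seen, were not called higher after 6 h of TCR stimulation. ND4, a complex I subunit, was at a relative signal of 256 and 266 (0 h), 211 (1 h) and 164 (6 h of TCR) in cells given IFNβ, against 189 and 191 (0 h), 205 (1 h) and 160 (6 h) in cells without it. In the TCR 6 h effect ND4 was at -0.50, CYTB of complex III at -0.53, COX2 of complex IV at 0.06 and ATP6 of ATP synthase at -0.37 on the log2 scale, and none passed (limma, adjusted p = 0.13, 0.14, 0.87 and 0.23). With quantile normalization ND4 (-0.89), CYTB (-1.05) and ATP6 (-0.78) were called lower (adjusted p = 0.018, 0.0097 and 0.049), and COX2 (-0.35) was not (adjusted p = 0.21). The nuclear members had medians of 0.93 and 0.17 in the 2 scalings, and the difference between the nuclear and mitochondrial genes was not tested.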
